A study of Caenorhabditis elegans with 43 samples.

Results

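The genes described here are named for proteins of the cytosolic ribosome in Caenorhabditis elegans. They were taken as every gene of the footprint table whose symbol begins with rpl- (large subunit), rps- (small subunit) or rla- (the acidic stalk proteins). This gave 79 genes of 20182, made up of 45 rpl, 31 rps and 3 rla genes. Ribosome-protected mRNA fragments had been sequenced from whole animals in 43 libraries of 4 strains, each library 1 population harvested at 1 hour of development. All animals were arrested as unfed L1 larvae, then fed Escherichia coli NA22 and grown at 25 °C. Of the 4 strains, lin-41(xe11);let-7(n2853), called the double mutant here, the single mutant lin-41(xe11) and wild-type N2 each had 11 libraries from 18 to 38 h, and let-7(n2853) had 10 libraries from 18 to 36 h.

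As background on the alleles, n2853 is a base change in the let-7 microRNA that weakens repression of its targets, and xe11 alters the let-7 sites of lin-41, which encodes an RNA-binding protein. The let-7(n2853) animals formed a separate, earlier time course whose monosomes were purified on sucrose gradients, whereas size-exclusion chromatography was used for the other 3 strains, so strain and purification cannot be told apart for let-7(n2853). Libraries held from 5020197 to 12797339 counts in the strains purified by chromatography and from 17364056 to 32261888 in let-7(n2853). No 2 libraries were identical. Markers of germline, body muscle, neurons, intestine, epidermis and pharynx were found in every strain, with 1 intestinal marker at 0 in the early N2 libraries.

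A ribosome is built from a large and a small subunit, each a core of ribosomal RNA covered by proteins that are mostly present in 1 copy per particle. The proteins of both subunits are made in step with each other, and growing tissues spend a large part of their translation on them. In mammals their mRNAs share a short pyrimidine-rich start that ties their translation to the TOR kinase. In the worm, larval growth and the expansion of the germline both call for new ribosomes. A footprint count rises with the amount of an mRNA and with the ribosomes on each copy, and these cannot be separated here. In whole animals, a change in the number of cells of a type and a change in RNA per cell cannot be told apart either.

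In wild-type animals the ribosomal protein genes took a growing share of all footprints. Their share of the N2 libraries was 5.82% at 18 h, 7.24% at 20 h, 7.44% at 22 h and 6.92% at 24 h. It was 8.35% at 26 h, 8.35% at 28 h, 8.88% at 30 h, 9.99% at 32 h, 10.07% at 34 h, 10.05% at 36 h and 9.63% at 38 h. Every library from 26 h on was above every library up to 24 h. The mean was 6.86% ± 0.722 in the early window of 18 to 24 h (SD, n = 4 hours) and 9.47% ± 0.801 in the late window of 28 to 36 h (n = 5 hours). The Wilson 95% interval of a share was at most 0.0227 percentage points to either side, which covers counting error only.

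The lin-41(xe11) and double mutant strains followed the same outline. In lin-41(xe11) the share was 6.78% ± 1.01 early and 9.49% ± 0.550 late, and it reached 10.8% at 38 h. In the double mutant it was 7.64% ± 0.806 early and 10.03% ± 0.425 late, with 11.6% at 38 h. The early and late libraries did not overlap in either strain.

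In let-7(n2853), the share was 7.58% at 18 h, 9.53% at 20 h and 9.44% at 22 h, and then 7.54% at 24 h and 8.20% at 26 h. From 28 h on it lay between 9.29 and 10.5%. The early libraries at 20 and 22 h were higher than the late library at 28 h, so the windows overlapped in this strain (8.52% ± 1.11 early, 9.91% ± 0.452 late).

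**Figure D1:**
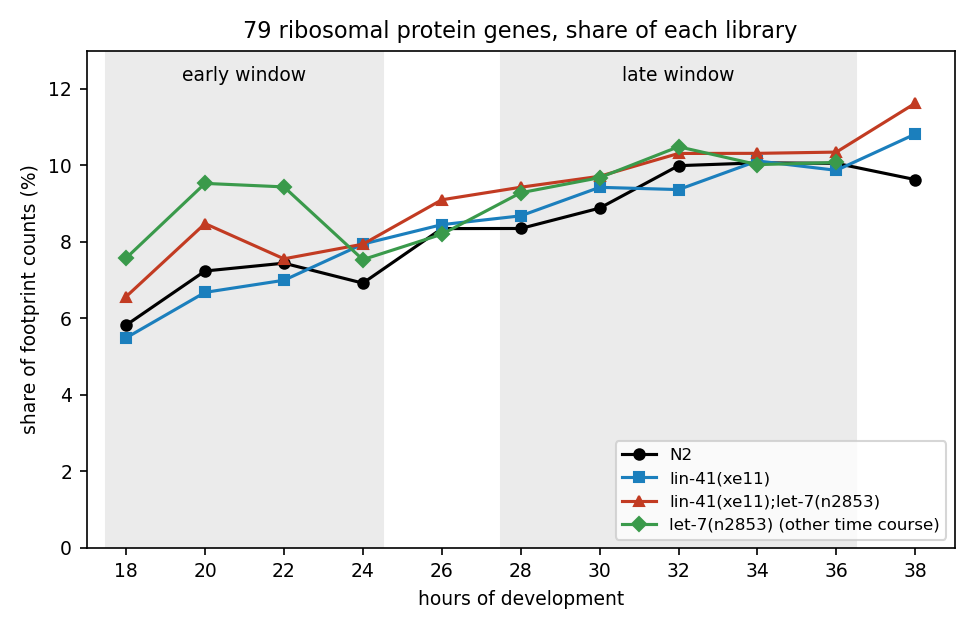
Share of all footprint counts (%) taken by the 79 ribosomal protein genes, by hour of development, 1 point per library and 1 line per strain; grey bands mark the early and late windows. N2 goes from 5.82% at 18 h to 10.05% at 36 h, and let-7(n2853), from the separate time course, has a high point of 9.53% at 20 h before a low of 7.54% at 24 h.

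The members differed little in level once length was taken into account. Over the N2 early window the median level was 1509 CPM per kb of coding length (CPM, counts scaled to library size with TMM factors), and 71 of 79 members lay within 2-fold of it. The highest were rpl-10, one of the last proteins to join the large subunit, at 3028 ± 564 CPM per kb (SD, n = 4), and rla-0, the base of the stalk that calls in translation factors, at 2630 ± 198. They were followed by rpl-19 at 2574 ± 291, by rpl-5, a partner of 5S ribosomal RNA, at 2454 ± 219.9, and by rpl-18 at 2443 ± 360.

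The low end was made up mostly of genes with a second copy or a related symbol. Over the same hours, rpl-25.1 had 435.6 ± 32.96 CPM per kb and rpl-25.2 had 362 ± 59.0. The levels of rpl-24.2 (75.8 ± 12.1 CPM per kb) and rpl-37 (64.1 ± 15.9) were lower still. The lowest was rpl-42, which had at most 2 counts in any of the 24 libraries from 18 to 28 h and none in 16 of them.

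**Figure D2:**
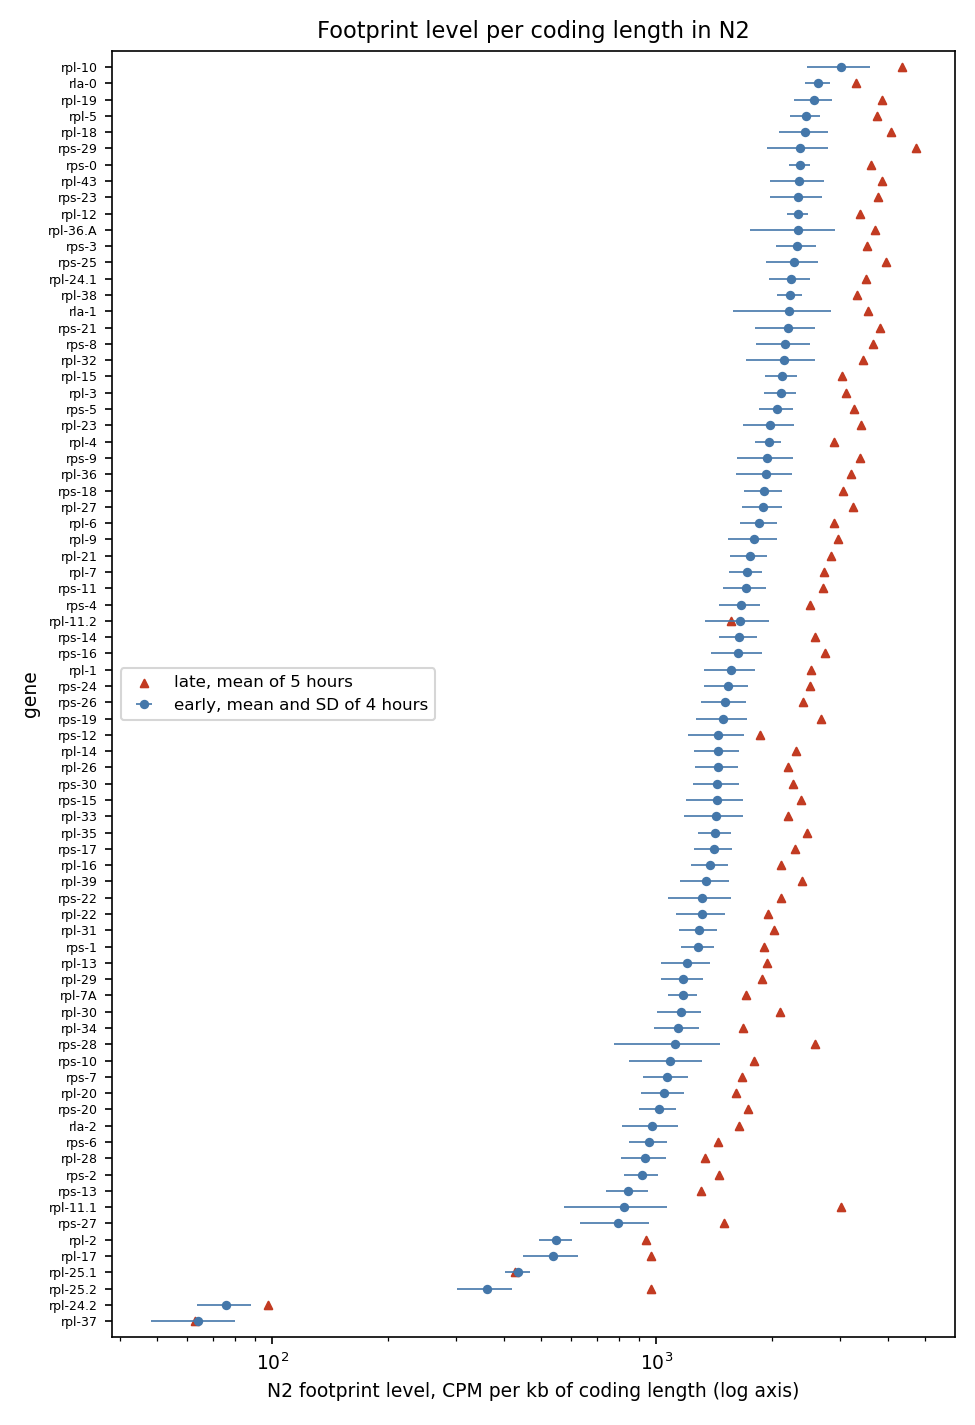
N2 footprint level of 78 ribosomal protein genes in CPM per kb of coding length on a log axis, 1 row per gene; circles with bars are the early mean and SD of 4 hours, triangles the late mean of 5 hours (rpl-42, near 0 early, is left out). Most early values lie around the median of 1509, and the triangles lie to the right of the circles except at rpl-11.2, rpl-25.1 and rpl-37.

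From the early to the late window nearly all members rose in N2. The edgeR quasi-likelihood test, adjusted over all genes tested, called 73 of 78 members higher and none lower (75 higher at an unadjusted p under 0.05; DESeq2 called 75 higher and none lower). Among all 12346 genes tested, 10.8% were called higher and 8.72% lower. At an unadjusted p under 0.05, 17.7% of them were higher and 17.1% lower, and DESeq2 called 15% higher and 9.45% lower. The median member change was 0.66 on the log2 scale, or 1.58-fold, against -0.02 for all genes. The gene rpl-42 was below the filter on low counts and so was not tested. With library totals alone the median of all genes was -0.18 and that of the members 0.49, and 70 members were then called. Leaving out the 18 h library lowered the count to 30 members, while the calls over all genes went from 1331 to 278 higher; without any other hour it was from 62 to 73.

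The members moved as a tight group. The quartiles of the 78 log2 changes in N2 were 0.58 and 0.73. Large-subunit genes had a median of 0.64 (40 of 44 called), small-subunit genes 0.66 (30 of 31 called) and stalk genes 0.66 (3 of 3 called).

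Among the large-subunit genes, rpl-3, whose protein reaches towards the peptidyl transferase centre, was chosen as an example after its values were seen. Its N2 level was 2190.3, 2749, 2666 and 2549 CPM at 18, 20, 22 and 24 h and 3368, 3639.6, 4097, 3856 and 3821 CPM at the 5 late hours. The windows did not overlap, and the log2 change was 0.54 ± 0.11 (SE; adjusted p = 0.0158, edgeR). The change of rpl-5 was 0.59 ± 0.11 (adjusted p = 0.0147, edgeR).

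Small-subunit genes gave the highest values outside the paralog pairs. The gene rps-28 had 129, 292, 231 and 224 CPM at the early hours in N2 and 391, 428, 548, 558 and 602 CPM at the late hours. All late values were above all early ones, and the log2 change was 1.19 ± 0.25 (adjusted p = 0.0176, edgeR). The zinc-binding proteins of the small subunit encoded by rps-29 and rps-27 came next, with log2 changes of 1.00 ± 0.20 (adjusted p = 0.0158) and 0.90 ± 0.19 (adjusted p = 0.0174, edgeR). At the other end, rps-12 had 608 ± 101 CPM early and 782 ± 76.8 late and was not called (log2 change 0.34 ± 0.12, adjusted p = 0.0844, edgeR).

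In N2 the 3 stalk genes had different log2 changes, which were not tested against each other. In let-7(n2853) their log2 changes lay between 0.32 and 0.46. The N2 level of rla-0 was 2648, 2594, 2317 and 2289.8 CPM early and 2916, 2948, 3271, 3172 and 3182 CPM late, a log2 change of 0.31 ± 0.09 (adjusted p = 0.0417, edgeR). For rla-1, encoding a P1 stalk protein that sits on that base, it was 584, 1047, 690.4 and 633 CPM early and 1084, 992, 1336, 1269 and 1233 CPM late. The 20 h value of rla-1 overlapped the late window, and its log2 change was 0.66 ± 0.19 (adjusted p = 0.0419, edgeR). For rla-2, encoding a P2 stalk protein, the change was 0.73 ± 0.15 (adjusted p = 0.0158, edgeR).

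Apart from rps-12, 4 members were not called in N2, all of them rpl genes with a paralog or a related symbol. The log2 change was -0.11 ± 0.16 for rpl-11.2, -0.05 ± 0.10 for rpl-25.1 and -0.05 ± 0.19 for rpl-37, and the adjusted p was 0.65, 0.762 and 0.884 (edgeR). For rpl-24.2 it was 0.34 ± 0.11 (adjusted p = 0.0655, edgeR). The gene rpl-24.1 rose by 0.64 ± 0.13 (adjusted p = 0.0169, edgeR).

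In lin-41(xe11) 73 of 78 members were called higher and none lower, with a median of 0.63, where 11.6% of all genes were called higher and 8.58% lower. In the double mutant 72 were called higher and none lower, with a median of 0.55, against 9.08% of all genes higher and 6.04% lower. At an unadjusted p under 0.05, 75 members were higher and none lower in each. Of all genes, 18.2% were higher and 15.5% lower at that threshold in lin-41(xe11), and 16.4% and 13.2% in the double mutant. DESeq2 called 74 and 73 members higher and none lower, where it called 14.4% and 11.8% of all genes higher. Over N2 and these strains, 71 members were called higher in all 3. The matching count over all genes is not given here, so that overlap has no background beside it.

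Single libraries set these counts in the mutants. In lin-41(xe11) 5 members were called without the 20 h library, with a median change of 0.62, while the genes called higher over the whole table went from 1424 to 307. In the double mutant 2 were called when the 18 h library was left out (median 0.43) and 3 when the 22 h library was. Leaving out 24 h gave 42, 32 h gave 15, 34 h gave 4 and 36 h gave 14, with medians from 0.50 to 0.54. The genes called higher over the whole table went from 1112 to 131 without 18 h, and to between 265 and 796 where one of these other hours was left out. By a linear slope over all hours, 77 members were called higher in lin-41(xe11), 74 in N2 and 73 in lin-41(xe11);let-7(n2853), where 21.1%, 23.2% and 18.9% of all genes were.

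In let-7(n2853) 14 of 78 members were called higher and none lower, a share near the background of 12.9% of all genes called higher, with 10.6% called lower. The median change was 0.33, and 46 members were higher and none lower at an unadjusted p under 0.05, against 18.4% and 17.2% of all genes. The count was 3 without 18 h or 34 h, 4 without 24 h, 32 h or 36 h, 9 without 28 h and from 11 to 21 without any other hour. DESeq2 called 30 (15.9% of all genes), and the slope over all hours called 29 higher and 2 lower (16.8% and 16.3% of all genes).

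Of the 14 members called in let-7(n2853), 13 were called in all 4 strains. They included rpl-11.1, rpl-25.2, rps-28, rps-29, rla-2 and rpl-3. The 4 members called in no strain were rpl-11.2, rpl-25.1, rpl-37 and rps-12. Neither count has a matching count over all genes here.

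**Figure D3:**
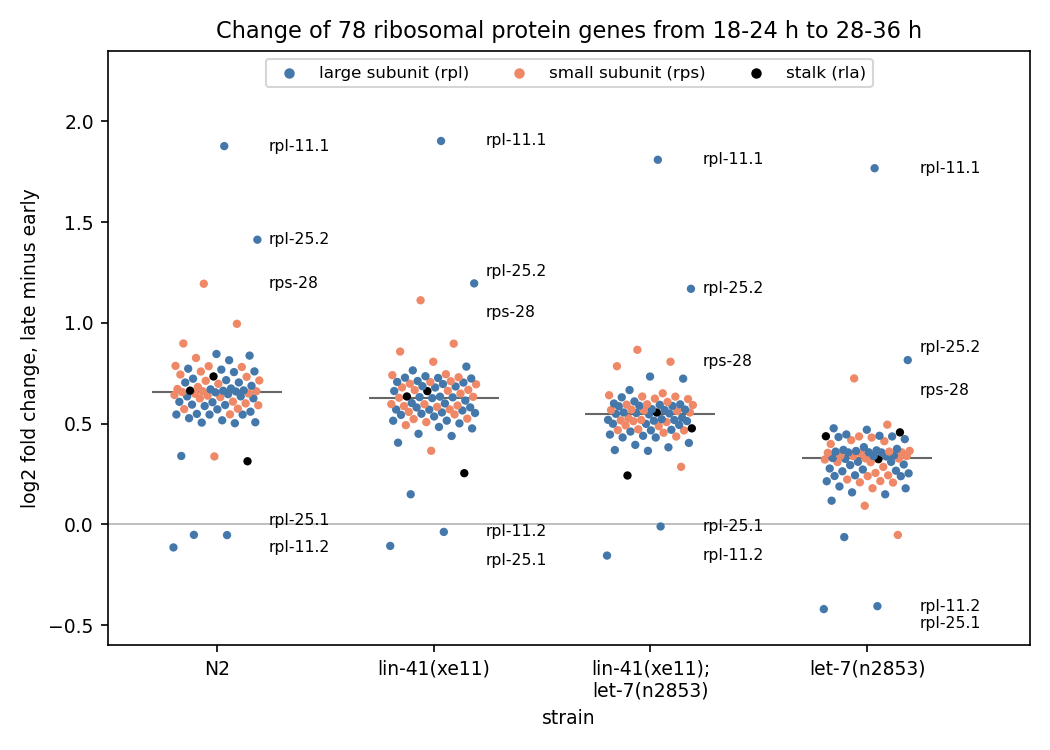
Log2 fold change from the early to the late window for 78 ribosomal protein genes in each strain (y axis), 1 point per gene coloured by subunit, with the median as a grey line. The medians are 0.66, 0.63, 0.55 and 0.33 from left to right; rpl-11.1 lies above the group and rpl-11.2 and rpl-25.1 below it in every strain.

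With 3 strains fitted together, the rise came in steps. In a fit of all 33 libraries of the later time course (every strain but let-7(n2853)), with its 3 strains standing in for replicates of an hour, all 79 members changed over the hours, as did 88.9% of all genes. Between 18 and 20 h, 76 of 79 members rose and none fell, by a median of 0.46 on the log2 scale, where 10.6% of all genes were called higher. Between 24 and 26 h, 68 rose and none fell, by a median of 0.31, where 12% of all genes were called higher.

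The first of these steps was largest for rps-28, at 0.89 ± 0.13 (adjusted p = 3.2e-05, edgeR), followed by rpl-32 at 0.64 ± 0.09 (adjusted p = 2.4e-05). The 3 members not called at 20 h were rpl-42, rpl-37 and rla-0, whose change was 0.06 ± 0.06. Leaving out any strain left 61 to 75 members called, where from 5.18% to 9.21% of all genes were called higher. At the second step the count depended more on single strains and on the scaling. It was 42 without N2, 47 without lin-41(xe11) and 17 without the double mutant. The calls over all genes fell too, to 10.8%, 5.14% and 3.65% higher in that order. With library totals alone the count was 31 with a member median of 0.17, and the median of all genes was then -0.11. The 18 to 20 h step kept 74 members and a median of 0.36 under that scaling. Of all genes, 6.34% were then called higher from 24 to 26 h and 7.87% from 18 to 20 h.

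In the joint fit few members were called between those steps. From 20 to 22 h, rpl-11.1 and rpl-24.2 rose and rla-0 and rps-20 fell, where 11.5% of all genes were called higher and 11.2% lower. After 26 h the gain per step was smaller, but the N2 share still went from 8.35% at 26 h to 10.07% at 34 h. From 30 to 32 h 6 members were called higher (median 0.15, 19.5% of all genes), and from 32 to 34 h 10 were (median 0.11, 20.2% of all genes). The member median was 0.04 from 26 to 28 h and 0.08 from 28 to 30 h. It was -8.8e-05 from 34 to 36 h and 0.07 from 36 to 38 h. Only rpl-11.1 was called higher from 22 to 24 h, from 26 to 28 h and from 28 to 30 h. Of all genes, 9.33%, 9.1% and 14.9% were called higher there and 8.77%, 6.6% and 8.41% lower. From 36 to 38 h rpl-11.1, rps-10 and rpl-14 rose and none fell, where 8.38% of all genes were called higher and 8.32% lower. That count of 3 depended on the scaling and the strains. It was 10 with library totals, 10 with limma on the deposited values, 6 with median-of-ratios factors, 9 without N2, 1 without the double mutant and 0 without lin-41(xe11). In that order, 8.39%, 8.45%, 9.88%, 6.91%, 4.74% and 2.34% of all genes were called higher. Under these alternatives and without the filter, from 1 to 3 members rose from 30 to 32 h and from 3 to 11 from 32 to 34 h. Of all genes, from 10.1% to 18.6% and from 14.5% to 22% were called higher there. The gene rpl-11.1 was called higher at every one of the 10 steps, though without lin-41(xe11) no member was called higher at 6 of them.

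**Figure D4:**
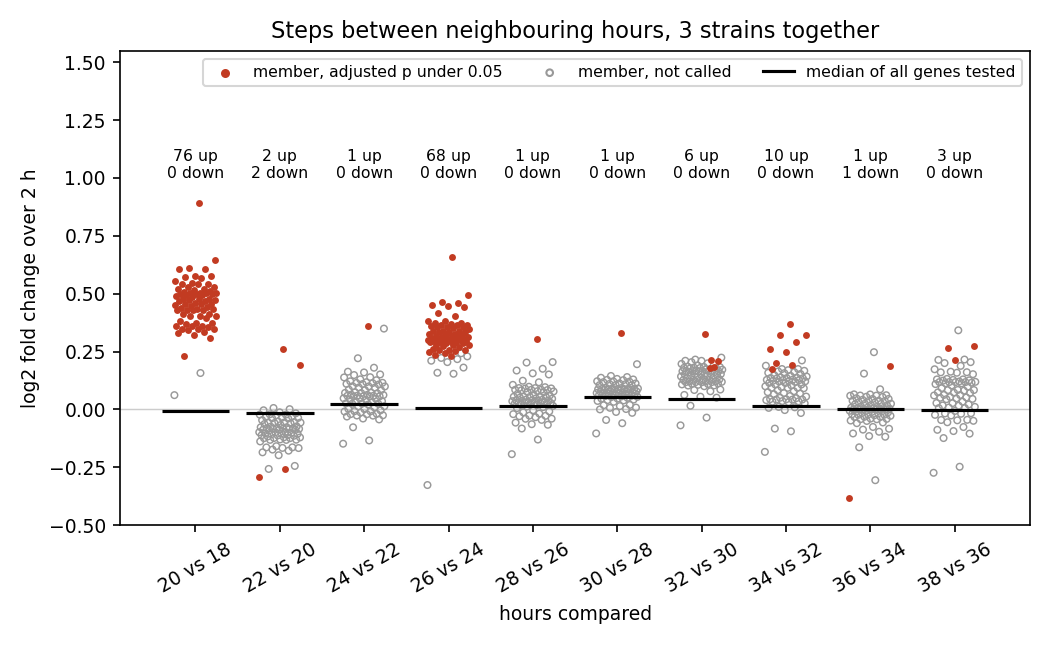
Log2 fold change over each 2 h step for 78 ribosomal protein genes (rpl-42 is not drawn but is in the counts), with N2 and both strains carrying lin-41(xe11) fitted together; filled points are called at an adjusted p under 0.05, open points are not, and black bars are the median of all genes tested. The members stand above the bar at the 18 to 20 h step (76 called) and the 24 to 26 h step (68 called).

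In let-7(n2853), which was outside that fit, only shares are compared by step. The log2 ratio of the member share was 0.33 from 18 to 20 h, against 0.31 for N2, 0.28 for lin-41(xe11) and 0.37 for the double mutant. From 22 to 24 h it was -0.32 in let-7(n2853), and -0.10, 0.18 and 0.07 in the others. From 24 to 26 h it was 0.12 in let-7(n2853), and 0.27, 0.09 and 0.20 in the others. The share in lin-41(xe11) thus gained more from 22 to 24 h than from 24 to 26 h. From 26 to 28 h the ratio was 0.18 in let-7(n2853). In let-7(n2853) 49 members had their lowest level at 24 h and 27 at 18 h, whereas 73 had it at 18 h in N2. The let-7(n2853) shares at 24 and 18 h were close, at 7.54% and 7.58%. Each hour was 1 library that all members share, and no matching count over all genes is given here.

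A rhythm with a period of 8 h, about that of the larval molts at this temperature, was called in 12 of 79 members, or 15.2%, where 55.6% of all genes were called. Apart from rpl-42, the 12 had amplitudes from 0.08 to 0.11 on the log2 scale, with rla-0 at 0.11 (adjusted p = 0.00101, edgeR). With a period of 7 h 60 members were called, where 53.4% of all genes were. With library totals alone 6 members were called (56% of all genes), without N2 5 (46.7%), and without the double mutant 3 (40.1%).

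Against this common course, a few members moved differently from the sum of all members. When each member was fitted against the member total, 4 were called higher and 4 lower in N2 (6.03% and 62.2% of all genes, since most genes fell against this total). Higher were rpl-11.1 by 1.21 ± 0.23 on the log2 scale, rpl-25.2 by 0.75 ± 0.16, rps-28 by 0.57 ± 0.16 and rps-29 by 0.35 ± 0.12. Lower were rpl-11.2 at -0.71 ± 0.19, rpl-37 at -0.67 ± 0.20, rpl-25.1 at -0.66 ± 0.18 and rla-0 at -0.34 ± 0.12. The largest adjusted p among the 8 was 0.0331 (edgeR).

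The other strains gave overlapping sets. In lin-41(xe11) the same 8 members were called in the same directions (6.25% and 58.4% of all genes were called higher and lower). In the double mutant, rpl-11.1, rpl-25.2 and rps-27 were higher and rpl-11.2 and rpl-25.1 lower (5.55% and 45.9% of all genes). In let-7(n2853), rpl-11.1, rpl-25.2 and rps-28 were higher and rpl-11.2, rpl-25.1 and rps-12 lower (5.89% and 22.7% of all genes). The let-7(n2853) counts of higher and lower members were 1 and 1 without 32 h or without 34 h, 2 and 1 without 18 h, and 1 and 2 without 36 h. The members called in all 4 strains were rpl-11.1 and rpl-25.2, both higher, and rpl-11.2 and rpl-25.1, both lower.

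These 4 are the copies of a pair of duplicated large-subunit genes. The protein made by rpl-11.1 and rpl-11.2 binds 5S ribosomal RNA together with the rpl-5 protein. That made by rpl-25.1 and rpl-25.2, which RefSeq names rpl-23A.1 and rpl-23A.2, lies at the exit of the nascent peptide tunnel. In the WBcel235 annotation, rpl-11.1 is at 3585312 to 3586064 on chromosome V and rpl-11.2 at 2241738 to 2242618 on chromosome X. There, rpl-25.2 is at 8329062 to 8329647 on chromosome I and rpl-25.1 at 4715178 to 4715796 on chromosome X. All 4 are annotated as protein-coding. How reads that match both copies were counted is not given in the sources used here, so the split within each pair is uncertain.

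Footprints of rpl-11.1 were higher at each hour than at the one before in N2. Its level was 311 CPM at 18 h, 432 at 20 h, 542 at 22 h, 647 at 24 h, 909.6 at 26 h and 1121 at 28 h. It went on to 1356 at 30 h, 1708 at 32 h, 2209.9 at 34 h, 2525 at 36 h and 2834 at 38 h. In the other strains it was 301, 338 and 433 CPM at 18 h and 2309, 2286 and 2400.2 CPM at 36 h, for lin-41(xe11), the double mutant and let-7(n2853).

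From the early to the late window the log2 change of rpl-11.1 was 1.88 ± 0.33 for N2, 1.90 ± 0.30 for lin-41(xe11), 1.77 ± 0.21 for let-7(n2853) and 1.81 ± 0.27 for the double mutant. The adjusted p was 0.0131, 0.00891, 0.00445 and 0.0129 (edgeR). The late values of rpl-11.1 were above the early ones in each strain.

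The other copy, rpl-11.2, followed another course. Its N2 level was 836, 1224, 999 and 832 CPM at 18 to 24 h, 1222 CPM at 26 h, and 1032, 984, 1096, 818 and 659 CPM at 28 to 36 h, with 469.9 CPM at 38 h. The early and late windows of rpl-11.2 overlapped. From 34 to 36 h rpl-11.2 fell by 0.38 ± 0.10 on the log2 scale (adjusted p = 0.00507, edgeR). In that fit it was the only member called lower at the step, where 11.2% of all genes were called lower. With library totals alone, with limma on the deposited values and without N2, 2 members were called lower there. Without the double mutant no member was.

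The make-up of the pair changed with the hours. Of the summed counts of the pair in N2, rpl-11.1 had 27.1% at 18 h, 43.8% at 24 h, 52.1% at 28 h, 73.0% at 34 h and 85.8% at 38 h. At 36 h its share was 79.3% for N2, 77.6% for lin-41(xe11), 77.1% for let-7(n2853) and 76.2% for the double mutant. The Wilson 95% interval was at most 0.926 percentage points to either side. The summed level of both copies in N2 was 1456 ± 218 CPM early and 2702 ± 442 late.

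The second pair did likewise at a lower level. In N2 rpl-25.2 had 123, 156, 178 and 177 CPM early, 255 CPM at 26 h, 305, 354, 402, 491 and 572 CPM late, and 533 CPM at 38 h. Its log2 change was 1.41 ± 0.23 for N2 (adjusted p = 0.0128), 1.20 ± 0.23 for lin-41(xe11) (0.0136), 0.82 ± 0.15 for let-7(n2853) (0.00877) and 1.17 ± 0.19 for the double mutant (0.0144, edgeR). The late values were above the early ones in every strain.

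For rpl-25.1 the N2 level was 177, 201, 208 and 184 CPM early, 222, 208, 203, 166 and 149 CPM late and 91.9 CPM at 38 h. Those windows overlapped. The share of rpl-25.2 in the pair went from 41.02% at 18 h to 49.0% at 24 h, 79.4% at 36 h and 85.3% at 38 h in N2, with an interval of at most 2.25 percentage points to either side.

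**Figure D5:**
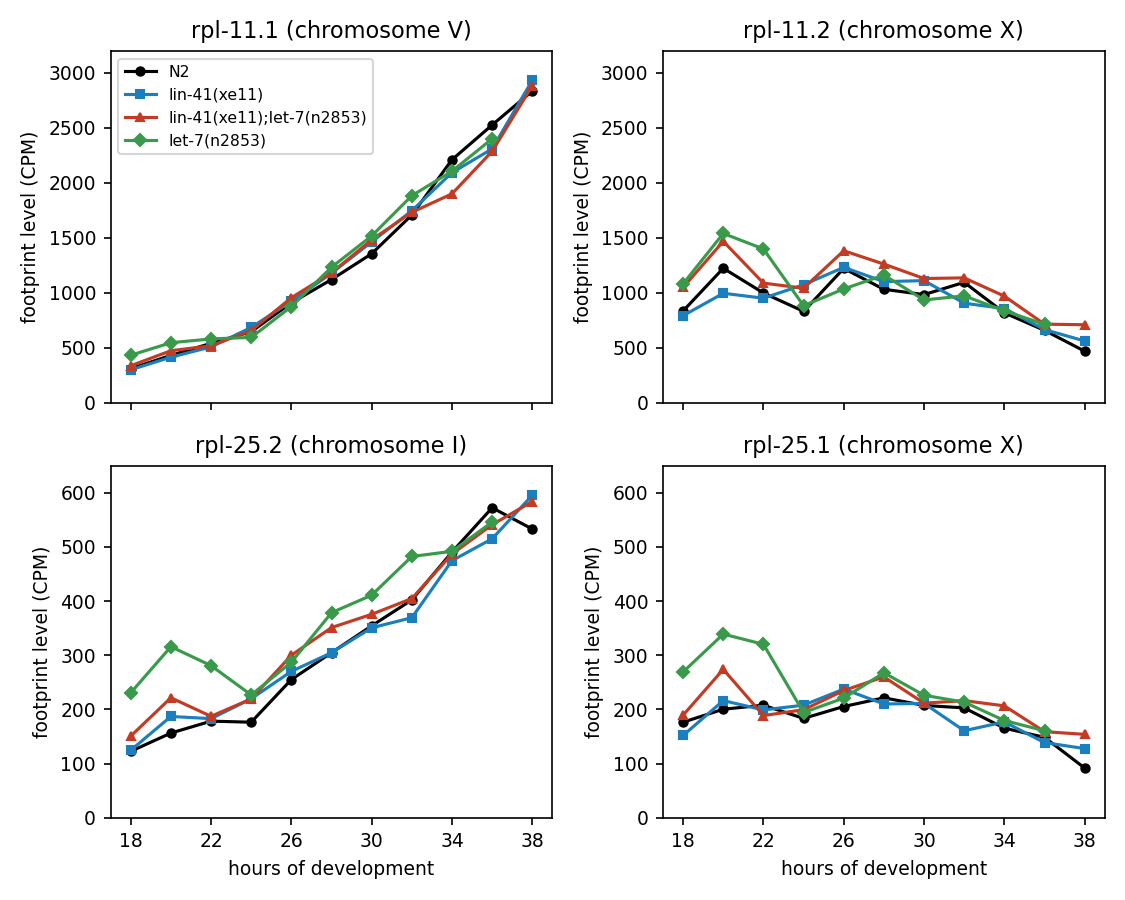
Footprint level (CPM) by hour for the copies rpl-11.1 and rpl-11.2 (top) and rpl-25.2 and rpl-25.1 (bottom) in the 4 strains, 1 point per library. The autosomal copies rise, rpl-11.1 from 311 to 2834 CPM in N2, and the X-linked copies are lowest at the last hours, rpl-11.2 at 469.9 CPM in N2.

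Both copies that did not rise are on the X chromosome, and they are the only X-linked members (2 of 79, or 2.53%, where 13.7% of all annotated genes are on X). In N2 73 of 76 autosomal members were called higher and neither X-linked member. Over all genes tested in N2, 3.95% of X-linked genes were called higher and 12.6% lower, against 12.1% and 8.06% of autosomal genes. This grouping was chosen after the values were seen. Chromosome I holds 29.1% of the members and 14.2% of all genes.

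Germline markers rose over the same hours. In N2 15 of 19 tested germline markers were called higher and none lower, with a median of 1.42 on the log2 scale. Their summed level ran from 989 to 1359 CPM in the early window and from 1887 to 3786 CPM in the late window, and none of the 20 was at 0. In let-7(n2853) 17 of 19 were called higher, and the summed level ran from 1076 to 1424 CPM early and from 1998 to 3609 CPM late. Of 9 intestinal markers tested 1 was higher and none lower in N2, and of 11 epidermal markers 2 were higher and none lower. Of 11 neuronal markers 9 were lower, of 9 body muscle markers none was higher and 1 lower, and of 8 pharyngeal markers 2 were lower. Over all genes tested in N2, 10.8% were called higher and 8.72% lower. The part of these tissues in the members' changes was not tested.

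The gene rpl-42 appeared late in every strain. It had from 28 to 147 counts, or 2.29 to 6.04 CPM, in the 11 libraries from 34 to 38 h. It passed the filter of the joint fit only through the late hours, where it is high, so its calls at the steps from 30 to 32 h and from 32 to 34 h, over the hours and in the rhythm fit, which stand in the member counts above, are no independent result. The same holds for the values of rpl-42 in the strain contrasts below. At all hours rpl-42 lay far below every other member.

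Between strains edgeR called no member with all hours in the fit. For lin-41(xe11) against N2 the median member difference, matched by hour, was 0.00 on the log2 scale early and -0.04 late, and the median 95% interval of a member ran from -0.17 to 0.09 late. At an unadjusted p under 0.05, 1 member was higher early (2.98% of all genes) and none was called late (3.15% of all genes higher and 4.63% lower), and DESeq2 called none. Over all genes, 0.0666% were called higher and 0.348% lower in the late comparison, and 0.0074% and 0.0148% in the early one.

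In the double mutant the members tended to be higher than in N2 early. The median difference was 0.19, and 77 of 79 members were above 0. Among the 2 below 0 was rpl-42 (-1.64), which had at most 2 counts in any early library. It passed the filter only through late hours, so its value is no independent result. The 95% interval of a single member ran, by the medians of its bounds, from 0.04 to 0.35. The members share these libraries and are not independent of each other. None was called by edgeR (0.0074% of all genes higher and 0.0296% lower), 62 were higher at an unadjusted p under 0.05 (3.7% of all genes), and DESeq2 called 20 higher (37 of all 13508 genes, or 0.274%). Leaving out 22 h gave 1 call by edgeR, and leaving out any other hour gave none. The smallest adjusted p was that of rla-2, at 0.108 for a difference of 0.33 ± 0.06, and rps-28 had the largest difference, 0.46 ± 0.10 (adjusted p = 0.216, edgeR). Late, the median difference was 0.06, with 5 members higher and none lower at an unadjusted p under 0.05, a share near the 4.61% of all genes higher at that threshold, where 6.16% were lower. After adjustment 0.267% of all genes were called higher and 0.644% lower. Against lin-41(xe11) late it was 0.10, with 24 higher and none lower at an unadjusted p under 0.05, where 3.13% of all genes were higher and 2.63% lower. After adjustment 0.0518% of all genes were called higher and 0.074% lower, and DESeq2 called none in either late comparison.

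For let-7(n2853) only the difference of the late minus early changes was compared with N2, because a constant offset between the time courses drops out of it. The median was -0.36, and 78 of 79 members were below 0. These include rpl-42, which passed the filter only through late hours and gives no independent result. The 95% interval of a single member ran, by the medians of its bounds, from -0.62 to -0.09. The members were measured in the same libraries, so their number does not stand for replicates. None was called by edgeR (0.0153% of all genes higher and 0.00766% lower), 64 were lower and none higher at an unadjusted p under 0.05 (6.48% and 3.94% of all genes), and DESeq2 called 7 lower (37 of all 13061 genes, or 0.283%). The lowest was rps-27 at -0.71 ± 0.15 (adjusted p = 0.283, edgeR). Within N2 the rps-27 level was 143, 218, 236 and 195 CPM early and 307 to 444 CPM late, and the windows did not overlap. Within let-7(n2853) it was 325, 428, 379.6 and 273 CPM early and 389.5 to 425 CPM late, and the windows overlapped.

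Other genes of the ribosome and its assembly give the setting. The genes rack-1, whose product sits on the small subunit, and ubq-2 and ubl-1, which encode ribosomal proteins fused to a ubiquitin or a ubiquitin-like domain, rose in N2, with a median of 0.63. So did Y37E3.8, C37A2.7 and W01D2.1, which RefSeq names rpl-27A, rplp-2.1 and rpl-37.1. The genes rpl-41.1 and rpl-41.2, which match the rule in the name table, were not analysed here. The late level of W01D2.1 in N2 was 94.19 ± 11.04 CPM, against 17.2 ± 2.61 CPM for rpl-37.

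Over all genes tested in N2, 10.8% were called higher and 8.72% lower, which is the background for the counts that follow. Of 29 genes tested from a list of nucleolar, assembly and larp genes, 5 rose and none fell in N2, with a median of 0.13. They were nucl-1, a nucleolin-like gene (0.61 ± 0.12), larp-5 (0.56 ± 0.14), rrp-8 (0.39 ± 0.11), fib-1, encoding the fibrillarin that methylates ribosomal RNA (0.21 ± 0.06), and pro-2 (0.23 ± 0.07). Of 8 subunits of RNA polymerases I and III, 1 rose, rpc-2 (0.30 ± 0.07). Of 6 elongation factor genes, 3 rose and none fell, among them eef-1A.1, which brings aminoacyl-tRNA to the ribosome (0.48 ± 0.09). None of 8 TOR and S6 kinase genes was called in N2 in either direction by edgeR.

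The mitochondrial ribosome did not share the course. Of its 69 genes tested in N2 none rose and 1 fell, mrpl-13 (-0.30 ± 0.09, adjusted p = 0.0493, edgeR), and the median change was -0.07. Its share of the N2 libraries was 0.451% ± 0.0296 early and 0.384% ± 0.0401 late. At the 18 to 20 h step, where 76 of 79 cytosolic members rose, 5 of 69 mitochondrial genes did, against 10.6% of all genes.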

How the data were processed

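Ribosome footprints of whole worms were counted per gene in 43 libraries, 1 per strain and hour. The authors mapped reads with Bowtie, per the submitters' processing notes; the Bowtie version, the build and annotation used and how multiply mapping reads were treated are not given in the sources used here. The deposited counts are whole numbers per gene. The authors' deposited log2 values match the log2 of the count scaled to 1 total per time course (12019637 and 26096086) plus 8, worked out from both tables, and were used with limma only. Of 20182 gene IDs, 18778 had a symbol, and all 79 members were found in the WBcel235 annotation, from which coding lengths were taken.

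Counts were tested with edgeR 4.0.16 (R 4.3.3, TMM factors, quasi-likelihood F test, Benjamini-Hochberg adjustment over all genes, threshold 0.05). Genes needed 1 CPM in at least 4 libraries within a strain, 5 in strain contrasts and 3 in fits over hours. Levels are CPM on TMM-scaled totals. The early window was 18 to 24 h (n = 4) and the late window 28 to 36 h (n = 5); libraries at 26 and 38 h entered the fits over hours, the rhythm fit and the slopes. Hours stand in for replicates within a strain and strains for replicates of an hour, so p-values measure the spread between these libraries and not between repeat cultures. Strain contrasts had a term for each hour. Alternatives were library totals, median-of-ratios factors, no filter, limma 3.58.1 on the deposited values, DESeq2 1.42.0, slopes, leaving out single hours or strains, no hour term and a 7 h period. The fits were also run on simulated counts with known changes. For the window comparisons those counts had no trend within a window, so that run does not test hours as stand-ins for replicates. The fits against the member total in both strains carrying lin-41(xe11) were added after the data were seen.

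All members were counted. Named with values are paralogs, the stalk genes, the 5 highest and 5 lowest members of each comparison and by level, and members called in a direction held by 5 or fewer. The members and lists were chosen with earlier results of these data known.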

Additional observations from a re-analysis of the deposited data

Results flagged for a closer look

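Of 128 groups of 4 or 5 hours checked for a library far from the others, 2 had one, where chance alone gives about 1 in 20. Both were the 20 h library of the early window in lin-41(xe11);let-7(n2853). The level of rpl-11.2 was 1468 CPM there, and from 1042 to 1089 CPM at the other early hours. The level of rpl-25.1 was 274 CPM there, and from 189 to 199.5 CPM at the other early hours. Without the 20 h library the late minus early log2 change of rpl-25.1 in the double mutant was 0.13 (adjusted p = 0.565, edgeR).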

How the results depend on the processing

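The counts of members called lose calls most readily when 1 hour is left out. Over the single hours left out, members called higher from the early to the late window ran from 30 to 73 for N2, 5 to 73 for lin-41(xe11), 3 to 21 for let-7(n2853), where 0 to 1 were called lower, and 2 to 70 for the double mutant (15 without 32 h and 14 without 36 h). The let-7(n2853) count was 9 without 28 h. In the same fits the share of all genes called higher ran from 2.28% to 12.9% for N2 and from 2.53% to 12.3% for lin-41(xe11). It ran from 6.22% to 12.7% for let-7(n2853) and from 1.08% to 10.5% for the double mutant. Relative to the member total, 3 to 4 members were higher and 3 to 4 lower in N2. In let-7(n2853) 1 to 3 members were higher and 1 to 3 lower. In the strain contrasts the range was 0 to 0, except for the double mutant against N2 early, at 0 to 1. With DESeq2, 30 members were called higher in let-7(n2853), 20 higher in the double mutant against N2 early, and 7 lower in the difference of differences between let-7(n2853) and N2. With the slope over all hours, 29 were higher and 2 lower in let-7(n2853), and 1 was lower in the double mutant. With library totals alone, 1 was lower in let-7(n2853), 6 were called rhythmic and 31 rose from 24 to 26 h. With limma on the deposited values, 6 were called rhythmic and 35 rose from 24 to 26 h. Without N2 these counts were 5 and 42, and without the double mutant 3 and 17. From 24 to 26 h, 6.34% of all genes were called higher with library totals and 6.57% with limma. That share was 10.8% without N2 and 3.65% without the double mutant. With a 7 h period 60 members were called rhythmic. The cause was not tested. Taking the hour as the block that pairs strains, the fit without the hour term (no replicate block) called 0 members in each of the 6 strain contrasts, as did the fit with it. Library totals alone moved the median of all genes by more than 0.1 on the log2 scale within each strain, to -0.18 for N2, -0.12 for lin-41(xe11), -0.14 for let-7(n2853) and -0.12 for the double mutant, against member medians of 0.49, 0.51, 0.21 and 0.42.

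Over all members and settings, 22 log2 changes (or slopes per hour) had another sign than the value reported, none of them called. Within N2 these were rpl-11.2 at 0.00898 without 20 h, rpl-25.1 at 0.0320 without 36 h, and rpl-37 at 0.0224 per hour as a slope, 0.118 without 22 h and 0.0630 without 32 h. For lin-41(xe11), rpl-11.2 was at 0.0239 without 24 h and 0.0532 without 36 h. For the double mutant, rpl-25.1 was at 0.126 without 20 h and 0.0529 without 36 h. Within let-7(n2853), rpl-37 was at 0.0802 and rps-12 at 0.0798 without 20 h, and rps-13 was at -0.0245 with library totals, -0.0140 with limma and -0.0194 without 24 h. Relative to the member total of N2, rla-1 was at -0.0248 without 22 h and -0.0247 without 24 h, rpl-24.1 at 0.00972 without 20 h and 0.000132 without 24 h, and rpl-7 at -0.0044 with median-of-ratios factors and -0.0012 without 20 h. The same fit of let-7(n2853) without 18 h gave rla-1 at 0.133 and rpl-24.1 at 0.0076. With 1 library per strain and hour, what limits the strain contrasts is the spread left after the strain and hour terms.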
